A study of Mus musculus with 4 samples.

Results

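Rcan2 and Rcan1, the regulators of calcineurin, were examined together with the calcineurin subunit genes Ppp3ca, Ppp3cb and Ppp3r1 and the NFAT transcription factor genes Nfatc1 and Nfatc3, which makes 7 genes of the 18193 that the arrays read by a probe set of their own. The 7 were picked with results of this same comparison already known, among them the large difference of Rcan2 between the crosses. Their differences are therefore given as a description, and nothing is supported by where they fall in the test over all genes. All 21 probe sets whose only gene symbol is one of the 7 are given, and the probe set with the highest mean log2 signal over the arrays stands for its gene.

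Liver RNA of 4 male mice, each 9 months old, was measured on Affymetrix arrays, 1 array per mouse. AB6F1 males (n = 2) had an AJ mother and a B6 father, and B6AF1 males (n = 2) had a B6 mother and an AJ father. All 4 had eaten chow in a specific-pathogen-free facility and received no intervention. The crosses share the same mix of autosomes and differ in the parent that gave each allele, in the strain of the X and Y chromosomes and in the mitochondria. In the GRCm38.p6 gene table all 7 genes lie on autosomes. The 2 crosses carry separate ranges of source numbers in the labels, and any difference in handling between the ranges cannot be told apart from the cross.

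Calcineurin is a phosphatase that calcium switches on. It is built from a catalytic A subunit, of which Ppp3ca and Ppp3cb encode the alpha and beta forms, and a calcium-binding B subunit, encoded in most tissues by Ppp3r1. It removes phosphates from NFAT proteins, which then enter the nucleus and activate genes, and RCAN proteins bind calcineurin and can restrain it. In Rcan1 a promoter inside the gene is itself switched on by NFAT, a feedback loop, whereas human RCAN2 was first described as a gene that thyroid hormone induces.

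The arrays do not show which transcription start a transcript came from, so the starts that RefSeq lists for the 2 regulators are shown with the short DNA core that NFAT proteins bind. The core GGAAA was searched on both strands in the 250 bases before each start (GRCm38.p6, the sequence of a B6 strain). RefSeq's promoter table held starts for Rcan1, Rcan2, Ppp3cb, Ppp3r1 and Nfatc3. The windows below run 5′ to 3′ on the gene's strand and end at the base before the start, with the core in capitals, as its complement where it lies on the other strand. They are the first and the third of 3 listed starts of Rcan2 and the second, downstream one of 2 listed starts of Rcan1.
Rcan2, the first start, chr17:43801102-43801351, plus strand: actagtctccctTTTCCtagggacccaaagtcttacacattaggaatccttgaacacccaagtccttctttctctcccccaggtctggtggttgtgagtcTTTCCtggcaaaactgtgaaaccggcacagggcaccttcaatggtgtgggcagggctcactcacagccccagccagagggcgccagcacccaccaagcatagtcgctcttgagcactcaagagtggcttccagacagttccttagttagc
Rcan2, the third start, chr17:43952749-43952998, plus strand: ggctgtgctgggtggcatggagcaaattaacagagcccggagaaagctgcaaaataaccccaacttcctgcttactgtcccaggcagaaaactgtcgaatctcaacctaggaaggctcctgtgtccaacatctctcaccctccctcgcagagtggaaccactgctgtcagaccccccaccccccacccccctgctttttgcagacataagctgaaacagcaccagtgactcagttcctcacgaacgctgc
Rcan1, the second start, chr16:92400079-92400328, minus strand: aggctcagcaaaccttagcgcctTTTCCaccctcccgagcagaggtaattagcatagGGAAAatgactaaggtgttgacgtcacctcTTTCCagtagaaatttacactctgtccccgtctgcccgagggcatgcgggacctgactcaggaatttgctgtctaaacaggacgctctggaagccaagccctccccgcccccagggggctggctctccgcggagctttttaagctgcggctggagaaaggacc

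The window at the second start of Rcan1 held 3 cores, which begin 227, 193 and 163 bases before the start. Of the 32851 promoter windows in the table, 6.39% held 3 or more cores and 55.6% held at least 1. The first start of Rcan2 had 2 cores, beginning 238 and 150 bases before it, as 21.4% of windows had 2 or more. No core was found in the windows of the second and the third start of Rcan2 or of the first start of Rcan1. A match to TGANTCA, the AP-1 motif, which reads the same on both strands, occurred once at the second start of Rcan1 and once at the third start of Rcan2, and in 6.75% of all windows. The nuclear receptor half-site AGGTCA, searched on both strands, to which thyroid hormone receptors can bind, occurred in none of the 5 windows of the 2 regulators and in 14.0% of all windows. Among the other genes, the window of Ppp3cb held 3 NFAT cores, the first of 2 starts of Nfatc3 held 1, and the window of Ppp3r1 held 0. These matches describe letters in the reference and do not show binding.

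Values are MAS5 signals, a linear brightness per probe set that had been scaled to a trimmed mean of 500 on every array, and differences are log2 AB6F1 minus B6AF1. The median signal of all probe sets was 67.2 to 78.0 over the 4 arrays, and Pearson correlations of log2 signal across probe sets were 0.897 within AB6F1, 0.901 within B6AF1 and 0.895 to 0.896 between the crosses. Genes whose mean log2 signal lay below a signal of 60.9, the median of all probe sets, were not tested, which left 11748 genes. Precision is limited by 2 arrays per cross, where an exact permutation test cannot give a p below 0.333 for a single gene. Albumin (Alb), the defining hepatocyte transcript, had signals of 38514 to 48625.

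Rcan2 stood apart from the other 6 genes. The AB6F1 mice gave signals of 1770 and 1995, and the B6AF1 mice gave 575 and 472. Both AB6F1 livers were far above both B6AF1 livers, and the mice of each cross lay close together. The means were 1883 ± 159 (SD, n = 2) and 523 ± 72.8 (SD, n = 2), a log2 difference of 1.85 ± 0.16 (limma SE), or 3.61-fold. The other probe set of Rcan2, designed on the same transcript record, gave 280 and 254 in AB6F1 and 85.5 and 93.4 in B6AF1. The crosses were as cleanly separated there, with a log2 difference of 1.58 ± 0.34 (limma SE), or 2.99-fold.

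Over all genes tested, 25 of 11748, or 0.213%, passed limma with Benjamini-Hochberg adjustment, and Rcan2 was the 1 gene of the 7 among them. Because the genes were chosen in view of this comparison, that count supports nothing further. By size of the log2 difference Rcan2 ranked 73 among the genes tested. With any 1 array left out its log2 difference ran from 1.71 to 1.99, but it was no longer among the genes that passed without B6AF1 replicate 1, without B6AF1 replicate 2, or when the variance was moderated without the trend on intensity.

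Rcan1, the paralogue of Rcan2, did not separate the crosses on its brightest probe set. That probe set read 769 and 1435 in AB6F1 and 793 and 565 in B6AF1. The second AB6F1 mouse was the highest, while the first lay between the B6AF1 mice. The log2 difference was 0.65 ± 0.31 (limma SE), the second largest of the 7 genes. Without AB6F1 replicate 2 it was 0.20, and without AB6F1 replicate 1 it was 1.10. The dimmer probe set of Rcan1, from the same transcript record, read 271 and 374 in AB6F1 and 265 and 258 in B6AF1, a log2 difference of 0.28 ± 0.25 (limma SE). There AB6F1 replicate 2 was again the highest array and the other 3 lay within 258 to 271.

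**Figure D1:**
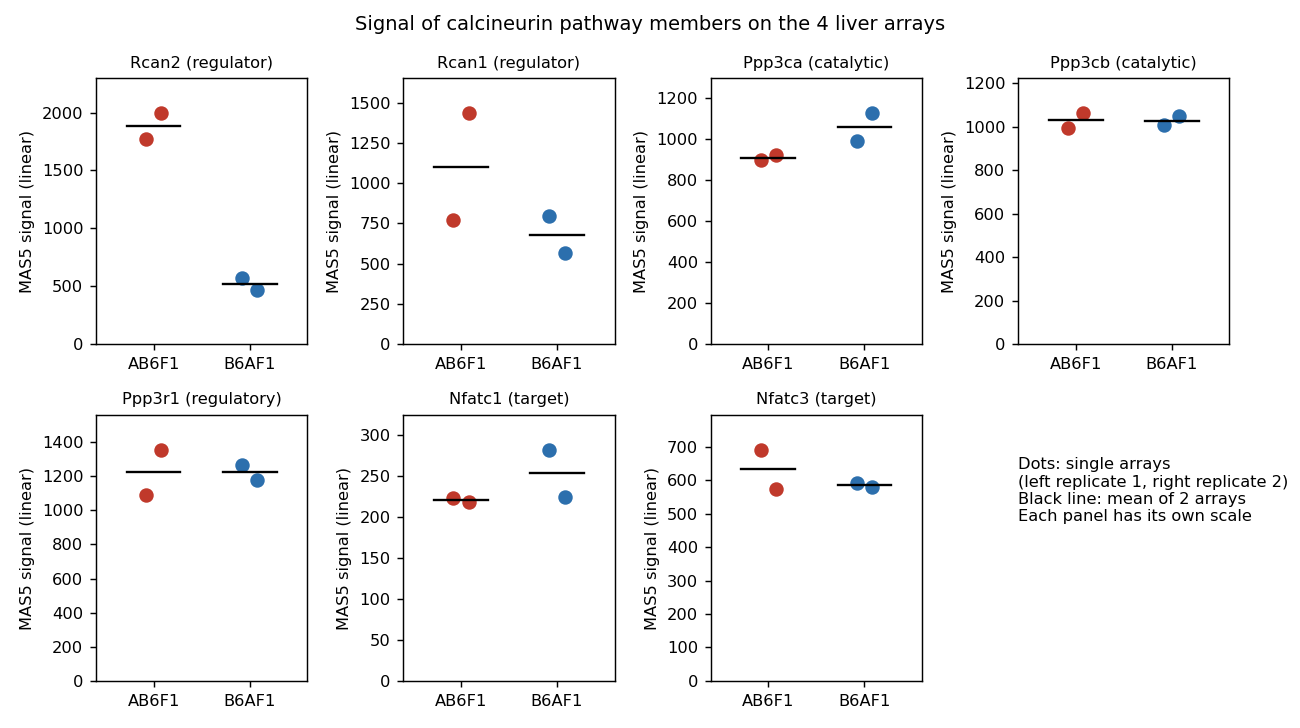
MAS5 signal (linear, vertical axis from 0, its own scale in each panel) of the brightest probe set of each of the 7 genes in AB6F1 (red) and B6AF1 (blue); dots are single arrays and black lines are means of 2 arrays. Rcan2 means were 1883 and 523, whereas Ppp3cb and Ppp3r1 had nearly equal means in the crosses, and 1 AB6F1 array of Rcan1 reached 1435.

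Of the 2 catalytic subunit genes among the 7, Ppp3ca was slightly lower in AB6F1 and Ppp3cb was about equal. Ppp3ca read 897 and 922 in AB6F1 and 994 and 1128 in B6AF1, a log2 difference of -0.22 ± 0.15 (limma SE). The AB6F1 arrays were below both B6AF1 arrays, though by little. The same order was seen on its other 2 probe sets, at 696 and 734 against 760 and 796 and at 323 and 337 against 594 and 401, with log2 differences of -0.12 and -0.56. The first of these shares its transcript record with the brightest probe set, so the 3 are not independent readings.

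Ppp3cb read 997 and 1063 in AB6F1 against 1007 and 1049 in B6AF1. Its means of 1030 ± 47.0 (SD, n = 2) and 1028 ± 30.0 (SD, n = 2) differed by less than the spread between mice of a cross. Of its 4 other probe sets, those reading 817 and 301 on average in AB6F1 had log2 differences of -0.02 and -0.10. A dim one read 139 and 157 against 121 and 49.5, at 0.94 ± 0.54 (limma SE), where 1 B6AF1 array was far below the other 3. The last lay below the filter, at signals of 3.3 to 33.8.

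Ppp3r1, the B subunit gene, was likewise level. It read 1090 and 1355 in the AB6F1 mice against 1268 and 1180 in the B6AF1 mice, a log2 difference of -0.01 ± 0.16 (limma SE). The AB6F1 arrays enclosed the B6AF1 arrays. Its dim second probe set read 90.8 and 82.0 against 33.3 and 90.9, at 0.65 ± 0.69 (limma SE). One more probe set, annotated to Wdr92 as well as Ppp3r1, was left out of every count.

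Among the NFAT genes the probe sets of 1 gene disagreed. The brightest probe set of Nfatc1, whose protein is best known from lymphocytes and developing heart valves, read 224 and 219 in AB6F1 and 283 and 225 in B6AF1, at -0.19 ± 0.24 (log2, limma SE). AB6F1 was below B6AF1 there by a margin of a few units of signal. The next probe set had the opposite order, 251 and 236 against 226 and 140, at 0.45 ± 0.33, and another was also higher in AB6F1, 128 and 160 against 119 and 109, at 0.33 ± 0.39 (limma SE). The fourth overlapped between the crosses at signals of 67.1 to 88.3, and the fifth lay below the filter. No single direction can be given for Nfatc1.

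Nfatc3, a widely expressed NFAT gene, read 691 and 573 in AB6F1 and 591 and 580 in B6AF1 on its brightest probe set. These overlapped, at 0.10 ± 0.17 (log2, limma SE). The other probe set did not overlap, at 569 and 535 against 432 and 388, a log2 difference of 0.43 ± 0.18 (limma SE). The brighter one carries the suffix _s_at, given to probe sets that can bind several transcripts.

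**Figure D2:**
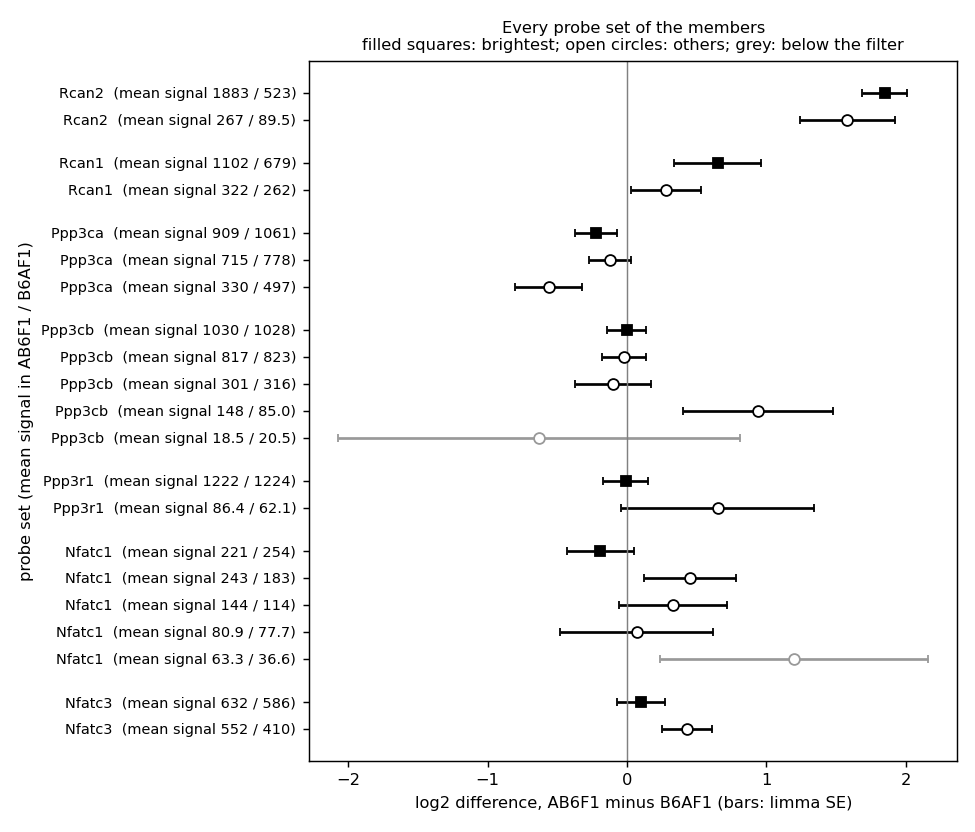
Log2 difference, AB6F1 minus B6AF1 (horizontal axis), with limma SE bars for all 21 probe sets, grouped by gene, with mean signals beside the names; filled squares are the brightest of each gene, open circles the others and grey those below the filter. Both Rcan2 probe sets lie at 1.58 and 1.85, all 3 of Ppp3ca lie below 0, and those of Nfatc1 lie on both sides of 0.

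Of the 21 probe sets 19 passed the filter, and 11 of the 19 kept the 2 crosses apart, 7 with AB6F1 above and 4 with AB6F1 below. Over all 20097 single-symbol probe sets past the filter 40.1% did so, 22.1% with AB6F1 above and 18.0% with AB6F1 below. Nothing is read from these shares, since the genes were chosen on this comparison. On the brightest probe sets, 3 of the 7 genes did not overlap, Rcan2 with AB6F1 above and Ppp3ca and Nfatc1 with AB6F1 below, beside 41.2% of all genes tested, 22.5% above and 18.7% below. All 7 genes passed the filter on their brightest probe set, and the 5 genes other than Rcan2 and Rcan1 had log2 differences of less than 0.25 in size.

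Centring each array on its median moved the median of all genes from 0.02 to -0.11, and the genes with small differences moved with it. Rcan2 was then at 1.71, Rcan1 at 0.51, Ppp3ca at -0.36 and Ppp3cb at -0.14, and Nfatc3 changed sign to -0.03. With an array left out, Ppp3r1 ran from -0.17 to 0.15, Nfatc3 from -0.03 to 0.24 and Ppp3cb from -0.04 to 0.05, so that no direction is given for these 3 genes. Ppp3ca stayed negative, from -0.31 to -0.13.

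**Figure D3:**
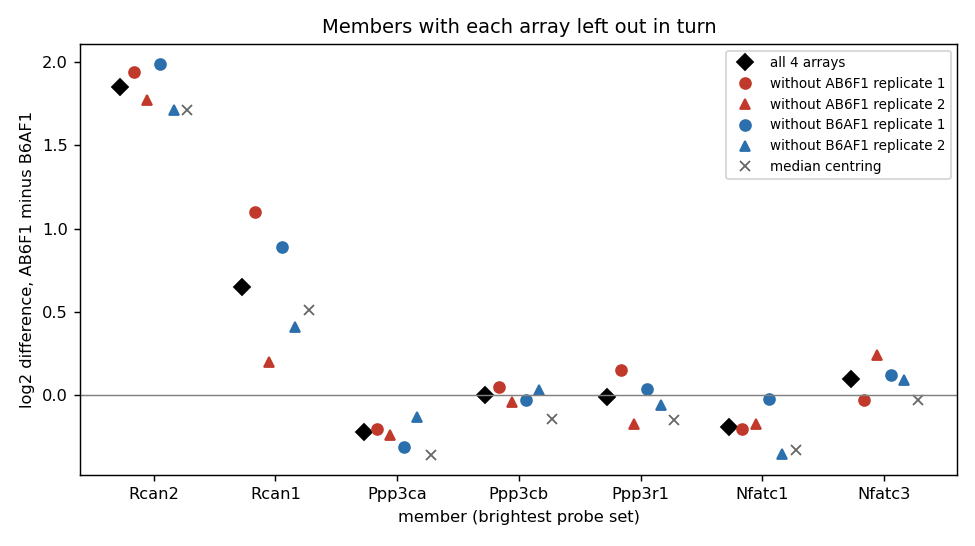
Log2 difference, AB6F1 minus B6AF1 (vertical axis), of the brightest probe set of each of the 7 genes with all 4 arrays (diamonds), with 1 AB6F1 array (red) or 1 B6AF1 array (blue) left out, and after median centring (crosses). Rcan2 lies between 1.71 and 1.99 throughout, whereas Rcan1 spans 0.20 to 1.10.

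Other genes of the pathway were taken from 8 lists of 54 genes, of which 41 were tested. None of the 41 passed limma with Benjamini-Hochberg adjustment, and 3 had an unadjusted p under 0.05, beside 9.72% of all genes tested. Their median log2 difference was 0.04, against 0.02 for all genes tested, and 34 of the 41 lay within 0.5 of 0.

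Ppp3cc, the gamma form of the catalytic subunit, known chiefly from testis and brain, had the larger difference of the 2 tested genes in its list. It read 206 and 180 in the AB6F1 mice against 58.0 and 51.2 in the B6AF1 mice. The crosses did not overlap, but both B6AF1 arrays were below the filter's signal of 60.9. The log2 difference was 1.82 ± 0.39 (SE), and it did not pass (limma adjusted p = 0.213). A second probe set of Ppp3cc past the filter was at 0.26. Rcan3, the third RCAN gene, read 67.0 to 86.0 on the 4 arrays, at 0.15 ± 0.51 (limma SE). Ppp3r2, a testis form of the B subunit, was below the filter.

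The other NFAT genes did not pass, and Nfatc2 and Nfatc4 were dim. Nfatc2 read 77.7 and 50.3 in AB6F1 against 95.4 and 91.1 in B6AF1, without overlap. Nfatc2 was at -0.58 ± 0.50 and Nfatc4 at 0.04 ± 0.60, and Nfat5, which responds to osmotic stress and is not a calcineurin target, was at 0.10 ± 0.37 (log2, limma SE).

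Of the proteins that anchor or inhibit calcineurin or carry its inhibitor drugs, 3 of 6 were tested and 0 passed limma, also 0 at an unadjusted p under 0.05. The filter bears on this count too. Tbc1d10c was left out through its low AB6F1 arrays, at 8.7 and 43.8 against 102.8 and 76.0 in B6AF1. Cabin1, a calcineurin inhibitor, read 83.6 and 101 in AB6F1 and 147 and 179 in B6AF1, at -0.82 ± 0.36 (SE; limma adjusted p = 0.526). Fkbp1a, the immunophilin that carries tacrolimus to calcineurin, read 4240 and 3639 against 3361 and 3145, at 0.27 ± 0.13 (SE; limma adjusted p = 0.551). Its other 3 probe sets past the filter were at 0.24 to 0.27. Akap5, a protein that anchors calcineurin at membranes, was at 0.49 ± 0.53 (SE).

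Of the kinases that put phosphates back on NFAT or act on RCAN proteins, none of 8 passed limma or had an unadjusted p under 0.05, with a median of 0.04 and a range from -0.25 to 0.37. The brightest were Csnk1d, at 0.20 ± 0.36, and Csnk1a1, at 0.16 ± 0.15 (log2, limma SE). Their other probe sets past the filter disagreed in direction, from -0.48 to 0.08 for Csnk1d and at -0.11, 0.40 and 1.52 for Csnk1a1. Those of Gsk3b, itself at 0.03 ± 0.13 (log2, limma SE), were at 0.04, 0.39 and 0.49. The arrays of Dyrk2 did not overlap, with AB6F1 below, at -0.25 ± 0.14 (log2, limma SE). Dyrk1a, which like Rcan1 lies in the human Down syndrome region and primes NFAT for export, was at -0.09 ± 0.19 (log2, limma SE). Its other probe sets past the filter had the opposite sign, at 0.31 and 0.11.

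Other calcineurin substrates had a median of -0.04 over 9 tested genes, from -0.32 to 0.32, and 0 passed limma or had an unadjusted p under 0.05. Dnm1l, the mitochondrial fission protein, was at -0.04 ± 0.14 and Mef2a, a transcription factor, at 0.00 ± 0.14 (log2, limma SE). Their other probe sets past the filter were at -0.07 and -0.42 for Dnm1l and from -0.33 to -0.01 for Mef2a. Those of Mef2d, itself at -0.13, disagreed in direction, at 0.26 and -0.91. Genes of calcium release, entry and removal had a median of -0.07 over 7 tested genes, from -0.19 to 0.29, and 0 passed limma or had an unadjusted p under 0.05. Atp2a2, the calcium pump of the endoplasmic reticulum, was at 0.04 ± 0.12, and Atp2b1, a calcium pump of the plasma membrane, at 0.29 ± 0.15 (log2, limma SE). Itpr2 was at -0.07 on its brightest probe set and at -0.27, 0.09 and 1.10 on the others past the filter.

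Of 9 NFAT target genes, 6 were below the filter. The 3 that were tested had higher signal in both AB6F1 arrays than in either B6AF1 array, beside 22.5% of all genes tested, and none passed limma. The filter bears on this count, since Cd40lg passed it through its AB6F1 arrays and, of the 6 left out, Ptgs2, Il2 and Ifng were lower in both AB6F1 arrays, Egr2 was higher and the other 2 overlapped. Cd40lg, a T cell ligand, read 153 and 126 against 63.9 and 23.9, at 1.83 ± 0.62 (SE; limma adjusted p = 0.429), or 1.12 without B6AF1 replicate 2 and 2.54 without B6AF1 replicate 1. The immediate early genes Nr4a1 and Egr3 were at 0.41 ± 0.31 and 0.82 ± 0.56 (log2, limma SE). Nr4a1 ran from 0.13 when AB6F1 replicate 2 was dropped to 0.69 when AB6F1 replicate 1 was, and Egr3 at 0.24 without B6AF1 replicate 1 and 1.39 without B6AF1 replicate 2.

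Thyroid hormone responsive liver genes went both ways, 3 positive and 3 negative with a median of 0.01, and 0 of 6 passed limma. The brightest were Thrsp, a lipogenic protein, and Me1, malic enzyme, at 0.75 ± 0.32 and 0.11 ± 0.43 (log2, limma SE). Thrsp read 20684 and 26237 against 20109 and 9561, and was at 0.21 without the low B6AF1 replicate 2 and at 1.28 without B6AF1 replicate 1. Another Thrsp probe set past the filter was at 1.02. The AB6F1 and B6AF1 arrays of Me1 overlapped widely, from 8328 to 19219. The 1 gene of this list with an unadjusted p under 0.05, named after its values were seen, was Dio1, the hepatic deiodinase, which read 4977 and 5851 in AB6F1 and 7506 and 9804 in B6AF1, at -0.67 ± 0.16 (SE; limma adjusted p = 0.278).

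**Figure D4:**
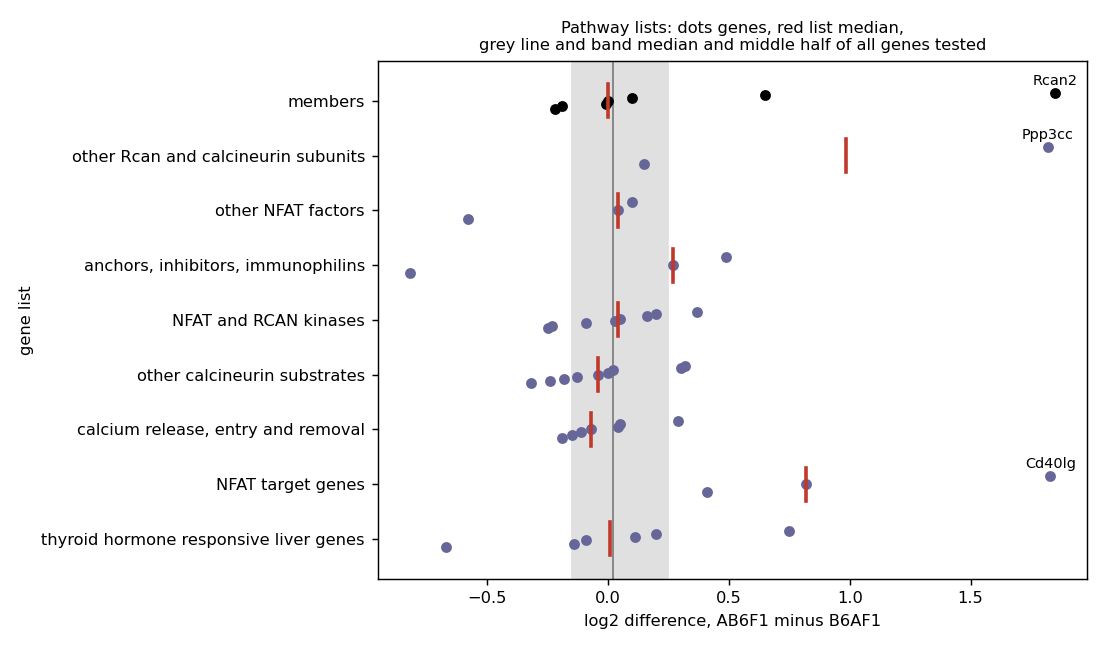
Log2 difference, AB6F1 minus B6AF1 (horizontal axis), of each tested gene in the pathway lists (vertical axis), with list medians in red; the grey line and band are the median, 0.02, and the middle 50% of all genes tested, -0.15 to 0.25. Rcan2, Ppp3cc and Cd40lg lie above 1.5.

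The genes whose values over the 4 arrays were most like those of Rcan2 were Col3a1, Lrrc24, Gsn, Ppp3cc and Zbtb45. Likeness was the Euclidean distance between log2 signals after each gene was centred on its own mean over the 4 arrays, and it was 0.08, 0.19, 0.20, 0.27 and 0.28. With 4 arrays many genes can lie close by, and genes of similar difference are chosen by construction. Col3a1, a fibrillar collagen chain, read 3773 and 4532 in AB6F1 and 1306 and 1066 in B6AF1. That was a log2 difference of 1.81, whereas its other probe set past the filter was at 0.98. Gsn, the actin-severing protein gelsolin, read 1779 and 1808 against 509 and 390. Of the 6 other genes of the group, Rcan1 was nearest to Rcan2, at a distance of 1.31 and rank 749.

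Whole liver was used, so that fewer cells of a type and less RNA per cell cannot be told apart, and markers of the cell types were set beside Rcan2. Stellate cell markers were higher in AB6F1 for 7 of 8 tested genes, with 2 passing limma, Col3a1 and Col1a2, 6 at an unadjusted p under 0.05 and a median of 0.81. Over all genes tested 53.5% were higher, 0.213% passed and 9.72% had an unadjusted p under 0.05. The stellate markers summed to 11044 and 14063 in the AB6F1 livers against 7910 and 7605 in the B6AF1 livers. Dcn, the brightest of them, counts as higher but was level, at 0.03 ± 0.17 (log2, limma SE), and Des was at -0.22 ± 0.72. The filter bears on these counts, since Col1a1, at 308 and 467 against 96.6 and 16.7, passed it through its AB6F1 arrays. Col1a1 is among the genes with an unadjusted limma p under 0.05, and its other probe set past the filter was at 0.31. Col3a1, on its brightest probe set, is also the gene that lay nearest to Rcan2. Macrophage markers were higher for 9 of 9 tested genes of 10 listed, with 0 passing limma, 7 at an unadjusted p under 0.05 and a median of 0.77, and their summed signal was 15351 and 9754 against 6263 and 8762. Clec4f and Vsig4 count as higher but overlapped between the crosses, at 0.29 ± 0.28 and 0.48 ± 0.33 (log2, limma SE). The stellate and macrophage sums were higher in both AB6F1 livers, and their part in the difference of Rcan2 was not tested.

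Hepatocyte markers were slightly lower for 7 of 7 tested genes, with a median of -0.10 and 0 passing limma or at an unadjusted p under 0.05. Their summed signals overlapped between the crosses, 331084 and 294662 against 311461 and 360124. Endothelial markers had a median of 0.13 over 7 tested genes and summed signals that overlapped between the crosses, 4139 and 3689 against 3270 and 4327. Of 10 lymphocyte markers 5 were tested, with a median of 0.15 and summed signals of 1158 and 698 against 593 and 672. The brightest of them was Ptprc, which all leukocytes carry, at 732 and 466 against 247 and 321. Of the T cell genes, Cd3d, Cd3g and Cd4 were below the filter, Cd3e was at 0.15 ± 0.49, and Cd8a was at -1.04 ± 0.69 (log2, limma SE), with 68.5 and 26.7 in AB6F1 against 69.7 and 111.5 in B6AF1. Cd8a passed the filter through its B6AF1 arrays. Of 7 skeletal muscle markers 5 were below the filter, and the other 2 summed to 177 and 234 against 213 and 87. Ckm, 1 of these 2, passed the filter through its AB6F1 arrays, at 125 and 89.8 against 112.6 and 20.5. None of the endothelial, lymphocyte or muscle markers passed limma, where 2, 1 and 0 genes had an unadjusted p under 0.05.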

How the data were processed

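Intensities were deposited as linear MAS5 signals per probe set, per the submitters' processing notes (no version stated); the scaling to a trimmed mean of 500 (lowest and highest 2% dropped) was read from the values. MAS5 is noisy for dim probe sets, and such scaling hides a change shared by all transcripts. Of 45101 probe sets, 34945 had 1 gene symbol, 932 several and 9160 none, and 64 were controls. Symbols were updated by gene identifier through RefSeq's GRCm38.p6 table for 34741. For the arrays' genome build: not given in the sources used here.

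Log2 signals, with no pseudocount, were fitted with limma 3.58.1 in R 4.3.3 (lmFit, eBayes with intensity trend, two-sided, Benjamini-Hochberg over 11748 genes, threshold 0.05), with all 4 arrays and no covariate. The fit was also run on data simulated from its own variance model, which cannot show how well that model holds for these arrays. The genes and lists were chosen with earlier results of these data known. Named genes are the 7 genes, every tested gene of the small calcineurin and NFAT lists, the 2 brightest of each other pathway list, Alb, and the 5 nearest Rcan2. Other genes were named after their values were seen. Among them are Dyrk1a, Dyrk2, Gsk3b, Mef2d, Itpr2, Cd40lg, Dio1, Col1a1, Col1a2, Clec4f, Vsig4, Ptprc, Ckm, the T cell markers and the genes below the filter. A further list of the pathway is not reported here. Alternatives were other normalizations, 16 added to the signal, other filters and probe sets, other variance moderation, a replicate block and each array left out.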

Additional observations from a re-analysis of the deposited data

How the results depend on the processing

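The log2 difference of Rcan2 was 1.71 to 1.85 under the alternatives for normalization, pseudocount, probe sets and block, and 1.71 to 1.99 with an array left out. The number of genes that passed limma, 25 in the fit reported, ranged from 21 to 32 under quantile normalization, cyclic loess, 16 added, both other filters, both other choices of probe sets and robust moderation. It was 50 after median centring. It was 0 without the intensity trend, where 1044 genes had an unadjusted p under 0.05. With an array left out it ran from 1, without either B6AF1 array, through 79 without AB6F1 replicate 1 to 241 without AB6F1 replicate 2; the cause was not tested. The labels do not say that replicate numbers pair mice, and deviations of same-numbered arrays correlated at -0.027. With the replicate number as a block 62 genes passed. Nfatc3 was at 0.43 without probe sets of suffix _x_at or _s_at, since its other probe set then stood for it. Of the 6 other genes, values moved by more than the replicate SD there and, after median centring, for Ppp3ca, Ppp3cb and Nfatc3. Leaving out 1 array of 2 cannot move a value past that SD. Groups of 2 arrays and the dim signal of Ppp3cc, Rcan3 and the NFAT targets limit what can be read.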

Other observations

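Several genes that calcineurin and NFAT are known to switch on in immune cells were below the filter in these livers. Il2 read 3.4 to 39.1, Ifng 4.0 to 8.8 and Fasl 6.1 to 31.7 over the 4 arrays. Egr2, another such gene, read 63.9 and 107 in AB6F1 against 43.8 and 38.9 in B6AF1, and the inflammatory enzyme gene Ptgs2 had the opposite order, 29.0 and 6.8 against 66.8 and 65.4. The probe set annotated to both Wdr92 and Ppp3r1 read 37.1 and 88.3 in AB6F1 and 62.3 and 74.7 in B6AF1.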
